A study of Homo sapiens with 10 samples.

Results

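The genes described here are 10 regulators of G1, the phase in which a cell either commits to copying its DNA or holds back. They were chosen by name and are listed here as brakes (CDKN1A, CDKN2C, RB1, GADD45A, BTG2 and PLK2) and drivers (CCND3, CCNE2, CDK2 and CDK4) of G1. Whether PLK2 slows G1 in these cells was not tested. Of the 10 genes, 8 had a probe set with a single gene symbol in the table used here, and CCND3 had 2, which gave 9 probe sets of 16376 and 8 genes of 8904. No probe set used here is assigned to CDKN2C or BTG2, and neither gene is given a value.

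RNA was measured on 10 Affymetrix U133 Plus 2 arrays, 2 per group, and each value is a log2 signal of 1 probe set. All cells derive from T47D-Y, a cloned subline of the human breast cancer line T47D that lacks progesterone receptors. The groups were PR-A K388R cells with R5020 or with vehicle, WT PR-A cells with R5020 or with vehicle, and T47D-Y cells with vehicle. PR-A is the shorter isoform of the progesterone receptor, K388R is a mutation that removes its SUMO attachment site, R5020 is a synthetic progestin given at 10 nM for 24 h, and the vehicle was ethanol. PR-A K388R and WT PR-A were each carried by 1 stably transfected line, so that receptor and line cannot be told apart, and the promoter that drives the receptor in these lines is not given in the sources used here. The labels do not say that the 2 arrays of a group came from separate cultures, and the p-values therefore cover only the spread between these arrays, which may be technical. Signals of bulk RNA do not tell a change in the share of cells in G1 apart from a change in RNA per cell.

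Array medians were 4.59 to 4.69 on the log2 scale, and all arrays resembled each other closely, with r of 0.996 to 0.997 within groups and 0.977 to 0.993 between groups across probe sets. Of the 9 luminal epithelial markers with a probe set, 8 lay above the array median on every array, among them KRT18, EPCAM, ESR1 and FOXA1, against 2 of 3 basal epithelial (ACTA2 and MYLK), 2 of 6 leukocyte and 3 of 7 fibroblast markers. The mean level of the luminal markers was 9.56 to 9.63 in PR-A K388R cells with R5020 and 9.76 to 9.86 with vehicle, 9.25 to 9.30 in WT PR-A cells with R5020 and 9.68 to 9.75 with vehicle, and 10.1 on both T47D-Y arrays. The basal markers moved the other way between lines, with a mean level of 5.88 to 6.02 in PR-A K388R cells with R5020 and 5.73 to 5.92 with vehicle, at most 6.01 in WT PR-A cells with R5020 and 6.04 to 6.13 with vehicle, and 5.47 to 5.52 in T47D-Y cells. The part of either marker list in the results was not tested. FKBP5, SGK1 and PDK4, known progestin targets, rose with R5020 in both PR-A lines, the smallest of these changes being 1.34 for PDK4 in PR-A K388R cells (limma, adjusted p = 0.0434). PDK4 rose by 3.18 in WT PR-A cells. The difference of its responses, PR-A K388R minus WT PR-A, was -1.84 and passed the test (limma, adjusted p = 0.0492). Another PDK4 probe set changed by 0.30 in PR-A K388R and 0.38 in WT PR-A cells and did not pass. The study names PDK4 among genes that SUMOylation leaves unaffected.

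A cell leaves G1 when cyclin D with CDK4, and then cyclin E with CDK2, phosphorylate the retinoblastoma protein RB1, which releases the E2F factors and with them the genes of DNA synthesis. CDK inhibitors such as p21, the product of CDKN1A, hold these kinases back. Several of the genes listed here as brakes are raised by p53, including CDKN1A, GADD45A, BTG2 and PLK2. Progestins are known in cultured breast cancer cells for a transient push through the cycle that is followed by arrest in G1.

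PLK2 carried the largest changes among the 9 probe sets, and CDKN1A is the best known of the brakes. Their promoters are therefore shown, as the 250 bases upstream of the start that RefSeq gives in build GRCh38.p14, 5′ to 3′ on the gene's own strand, with GC boxes (GGGCGG on either strand) in capitals. The PLK2 window is chr5:58460087-58460336 on the minus strand and the CDKN1A window chr6:36678464-36678713 on the plus strand. RefSeq places the PLK2 gene at chr5:58453982-58460086 and the CDKN1A gene at chr6:36676463-36687332, so that the CDKN1A window lies inside the gene's span, before the start of one of its transcripts. The other members that passed a test with R5020 lie at chr1:67685201-67688334 (GADD45A) and chr6:41934933-42050035 (CCND3).
PLK2: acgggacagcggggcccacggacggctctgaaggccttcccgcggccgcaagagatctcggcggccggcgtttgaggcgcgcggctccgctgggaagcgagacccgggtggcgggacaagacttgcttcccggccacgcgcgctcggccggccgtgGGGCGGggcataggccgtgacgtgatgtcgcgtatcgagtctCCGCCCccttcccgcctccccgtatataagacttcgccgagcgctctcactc
CDKN1A: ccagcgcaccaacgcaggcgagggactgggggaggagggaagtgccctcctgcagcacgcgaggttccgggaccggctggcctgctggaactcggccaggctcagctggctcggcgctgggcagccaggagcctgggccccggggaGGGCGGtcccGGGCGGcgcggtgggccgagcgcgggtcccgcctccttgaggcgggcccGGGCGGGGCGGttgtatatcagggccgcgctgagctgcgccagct
The PLK2 window holds 2 GC boxes and the CDKN1A window 4, of which the last pair overlaps. GC boxes occur in 42.6% of the 35116 windows of this length. Neither window holds the full palindrome of a progestin response element, which occurs in 0.00285% of windows, or its arm TGTTCT, which occurs in 12.4%. The E2F site forms TTTGGCGC (0.55% of windows) and TTTCCCGC (1.39%) and the TATA box form TATAAA (10.7%) are absent from both windows too. Other forms of the TATA box were not searched, so neither promoter is shown to lack one. Both strands were searched, and a missing match says only that these letters are not in this window.

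Most of the G1 regulators did not pass the test with R5020, and the genes listed here as brakes moved in both directions. PLK2 fell in both PR-A lines, GADD45A rose in WT PR-A cells, and CCND3 rose in PR-A K388R cells. A probe set was called at a Benjamini-Hochberg adjusted p under 0.05 in limma over all 16376 probe sets and a fold of at least 1.5. In PR-A K388R cells 1 of 9 member probe sets was called higher and 1 lower, against 1.01% higher and 0.391% lower over all probe sets. The WT PR-A cells also had 1 of 9 called higher and 1 lower, against 3.63% and 2.77% over all probe sets. The median log2 change of the 9 probe sets was 0.18 with the mutant receptor, against 0.00 over all probe sets, and 0.02 with WT PR-A, against -0.01.

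**Figure D1:**
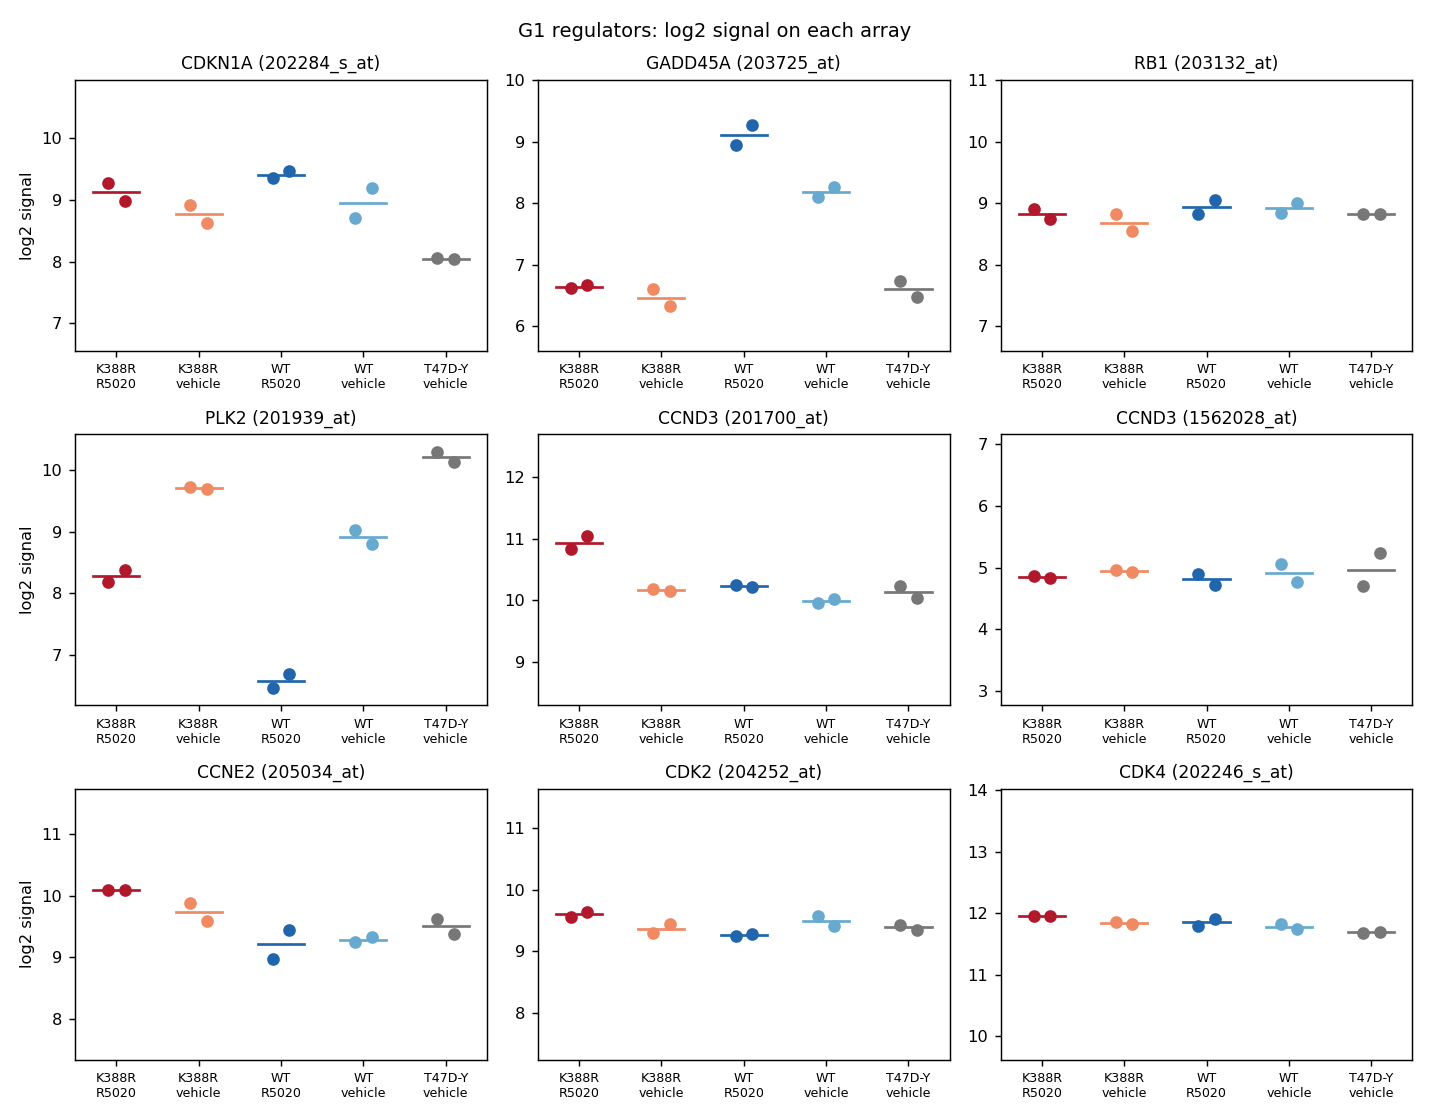
Log2 signal (vertical axes) of the 9 probe sets of G1 regulators in the 5 groups (horizontal axes), with 1 point per array and a bar at each group mean. The arrays of PLK2 overlap between no groups, GADD45A is higher on the WT PR-A arrays than on all others, and the brighter CCND3 probe set is highest in PR-A K388R cells with R5020.

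PLK2, a polo-like kinase made in G1 and known for its part in centriole duplication, had signals of 8.18 and 8.38 in PR-A K388R cells with R5020 and 9.72 and 9.69 with vehicle. The signals of WT PR-A cells were 6.47 and 6.68 with R5020 and 9.03 and 8.80 with vehicle, and T47D-Y cells had 10.30 and 10.13. No 2 groups overlapped: T47D-Y was highest, then both vehicle-treated PR-A lines, PR-A K388R above WT PR-A, then both R5020-treated lines in the same order.

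PLK2 fell by 1.43 on the log2 scale with R5020 in PR-A K388R cells, a 2.69-fold decrease (95% interval -1.74 to -1.12, adjusted p = 0.00111 in limma). In WT PR-A cells it fell by 2.34, a 5.05-fold decrease (SE 0.14, 95% interval -2.64 to -2.03, adjusted p = 1.93e-05 in limma). These were the 5th and the 8th lowest changes of all 16376 probe sets in their comparisons. The difference of both responses, PR-A K388R minus WT PR-A, was 0.91 (SE 0.19, 95% interval 0.47 to 1.34), and it missed the threshold in limma at an adjusted p of 0.0560. Without the replicate block the adjusted p was 0.0242, which passes.

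With vehicle alone PLK2 already differed between the PR-A lines. It was 1.73-fold higher in PR-A K388R than in WT PR-A cells (log2 difference 0.79, limma, adjusted p = 0.00522). Against T47D-Y it was 2.46-fold lower in WT PR-A cells (log2 difference -1.30, 95% interval -1.61 to -0.99, adjusted p = 0.000306). For PR-A K388R cells the log2 difference from T47D-Y was -0.51 (95% interval -0.81 to -0.20), with an adjusted p of 0.0728 in limma. Both of these comparisons use the same T47D-Y arrays, and the vehicle arrays are also those of the R5020 responses.

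GADD45A encodes a stress-induced nuclear protein that binds p21 and PCNA and slows the cycle. Its signals were 6.63 and 6.67 in PR-A K388R cells with R5020 and 6.60 and 6.33 with vehicle. WT PR-A cells had 8.94 and 9.28 with R5020 and 8.09 and 8.26 with vehicle, and T47D-Y cells 6.74 and 6.47. The WT PR-A line thus lay above the other lines on all of its arrays, while both PR-A K388R groups overlapped with T47D-Y.

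R5020 raised GADD45A 1.91-fold in WT PR-A cells (log2 change 0.93, SE 0.16, 95% interval 0.57 to 1.29, adjusted p = 0.00521 in limma). In PR-A K388R cells its log2 change was 0.18 (95% interval -0.18 to 0.54, adjusted p = 0.783). The difference of the responses was -0.75 (95% interval -1.25 to -0.25) and did not pass after adjustment over all probe sets (limma, adjusted p = 0.174). With vehicle, GADD45A was 3.27-fold lower in PR-A K388R than in WT PR-A cells (log2 difference -1.71, SE 0.16, adjusted p = 0.000158 in limma). Against T47D-Y it was 2.97-fold higher in WT PR-A cells (log2 difference 1.57, SE 0.16, adjusted p = 0.000241), and the log2 difference between PR-A K388R and T47D-Y cells was -0.14 (adjusted p = 0.671).

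CDKN1A, which encodes the CDK inhibitor p21, had signals of 9.28 and 8.98 in PR-A K388R cells with R5020 and 8.91 and 8.62 with vehicle. It had 9.36 and 9.47 in WT PR-A cells with R5020 and 8.70 and 9.20 with vehicle, and 8.05 and 8.04 in T47D-Y cells. All 8 arrays of the PR-A lines lay above both T47D-Y arrays. The log2 change with R5020 was 0.36 in PR-A K388R cells (95% interval -0.04 to 0.77, limma, adjusted p = 0.526).

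For CDKN1A in WT PR-A cells the change with R5020 was 0.46 (95% interval 0.06 to 0.87, limma, adjusted p = 0.192). Without WT PR-A vehicle replicate 2, the higher of the vehicle arrays, it was 0.71 with an adjusted p of 0.0341, and without WT PR-A vehicle replicate 1, the lower, it was 0.21 with an adjusted p of 0.582. The responses of CDKN1A differed by -0.10 (95% interval -0.67 to 0.47). Against T47D-Y, CDKN1A was 1.87-fold higher in WT PR-A cells with vehicle (log2 difference 0.91, adjusted p = 0.0114 in limma). For PR-A K388R against T47D-Y the log2 difference was 0.72 (95% interval 0.32 to 1.13), just short of the threshold at an adjusted p of 0.0558, against 0.0319 without the replicate block.

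RB1, the pocket protein that keeps E2F factors silent, varied least of the brakes. Its signals were 8.90 and 8.75 in PR-A K388R cells with R5020, 8.82 and 8.55 with vehicle, 8.82 and 9.06 in WT PR-A cells with R5020, 8.84 and 9.01 with vehicle, and 8.82 and 8.83 in T47D-Y cells. Neighbouring groups in the order of their means overlapped throughout. Its log2 change with R5020 was 0.14 in PR-A K388R cells (95% interval -0.18 to 0.45) and 0.02 in WT PR-A cells (95% interval -0.30 to 0.33).

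Among the drivers, CCND3 was the one that passed the test. It encodes cyclin D3, a partner of CDK4 and CDK6. The brighter of its probe sets had signals of 10.84 and 11.04 in PR-A K388R cells with R5020 and 10.19 and 10.15 with vehicle. WT PR-A cells had 10.25 and 10.21 with R5020 and 9.96 and 10.02 with vehicle, and T47D-Y cells 10.24 and 10.04. The R5020-treated PR-A K388R cells stood above every other array.

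CCND3 rose 1.70-fold with R5020 in PR-A K388R cells by this probe set (log2 change 0.77, SE 0.12, 95% interval 0.50 to 1.04, adjusted p = 0.0156 in limma). In WT PR-A cells its log2 change was 0.24 (95% interval -0.03 to 0.51, adjusted p = 0.351). The difference of the responses was 0.53 (95% interval 0.15 to 0.91) and did not pass (limma, adjusted p = 0.215). The dimmer CCND3 probe set had signals between 4.70 and 5.23, near the array medians, with a log2 change of -0.10 in both lines.

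CCNE2, which encodes cyclin E2, the partner of CDK2, had signals of 10.10 and 10.09 in PR-A K388R cells with R5020 and 9.89 and 9.59 with vehicle. The signals were 8.98 and 9.45 in WT PR-A cells with R5020, 9.25 and 9.33 with vehicle, and 9.62 and 9.38 in T47D-Y cells. Every PR-A K388R array lay above every WT PR-A array, but CCNE2 was called in none of the comparisons that were run. CCNE2 was not tested between R5020-treated PR-A K388R and R5020-treated WT PR-A cells, where its means were 10.09 and 9.21. Its log2 change with R5020 was 0.36 in PR-A K388R cells (95% interval -0.03 to 0.74) and -0.08 in WT PR-A cells (95% interval -0.46 to 0.31), and with vehicle the PR-A K388R cells differed from WT PR-A cells by 0.45 (95% interval 0.06 to 0.84, limma, adjusted p = 0.144).

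CDK2, the kinase that cyclin E activates, stayed within 9.24 to 9.64 on all arrays. Its log2 change with R5020 was 0.23 in PR-A K388R cells (95% interval -0.03 to 0.50) and -0.23 in WT PR-A cells (95% interval -0.49 to 0.03), and the difference of these was 0.46 (95% interval 0.09 to 0.84, limma, adjusted p = 0.284). CDK4, the kinase that D cyclins activate, lay between 11.68 and 11.96 on all arrays. The log2 change of CDK4 was 0.11 in PR-A K388R cells (95% interval -0.13 to 0.35) and 0.07 in WT PR-A cells (95% interval -0.17 to 0.30), so that a change of CDK4 as large as 1.5-fold lies outside both intervals.

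**Figure D2:**
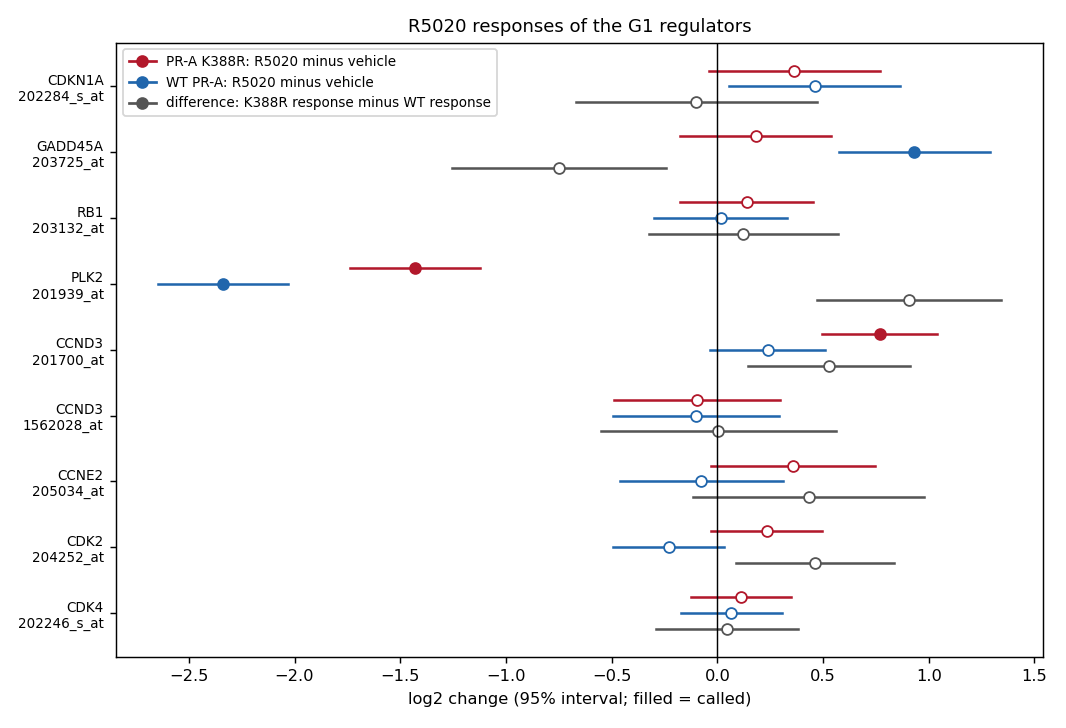
Log2 change with R5020 (horizontal axis) of each G1 regulator probe set (vertical axis) in PR-A K388R cells, in WT PR-A cells, and the difference of both, with 95% intervals from limma over 2 arrays a group and filled points for called values. PLK2 lies far below 0 in both lines at -1.43 and -2.34, and GADD45A at 0.93 in WT PR-A and CCND3 at 0.77 in PR-A K388R cells are the other called responses.

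The test of the difference between both R5020 responses called 0 of the 9 member probe sets in limma, against 0.519% called higher and 0.953% lower over all probe sets. At an unadjusted p under 0.05 it gave 4 of 9, which were PLK2, GADD45A, CCND3 (its brighter probe set) and CDK2, and unmoderated contrasts called 0 after adjustment. A response past the threshold in one line and not in the other, as for GADD45A and CCND3, was therefore not shown to differ between the lines.

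Without ligand the calls lay among the genes listed here as brakes. In PR-A K388R against WT PR-A cells 1 of 9 member probe sets was called higher (PLK2) and 1 lower (GADD45A), against 2.71% and 4.72% of all probe sets. For PR-A K388R against T47D-Y limma called 0 of 9, with 1.06% higher and 2.3% lower over all probe sets, and 2 of 9 (CDKN1A and PLK2) had an unadjusted p under 0.05, while unmoderated contrasts called 0. For WT PR-A against T47D-Y 2 were called higher (CDKN1A and GADD45A) and 1 lower (PLK2), against 3.72% and 3.55%. No probe set of CCND3, CCNE2, CDK2 or CDK4 was called in any of these 3 comparisons.

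**Figure D3:**
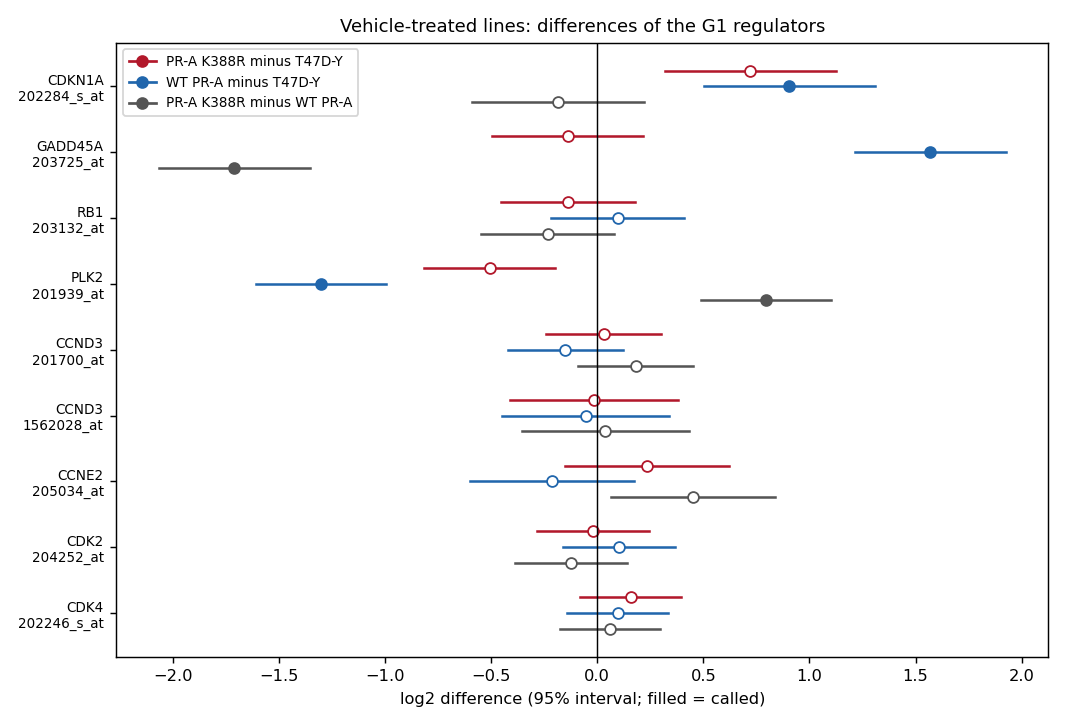
Log2 difference with vehicle (horizontal axis) of each G1 regulator probe set (vertical axis) for PR-A K388R against WT PR-A, PR-A K388R against T47D-Y and WT PR-A against T47D-Y cells, with 95% intervals from limma over 2 arrays a group and filled points for called values. GADD45A lies at -1.71 and 1.57 in the comparisons that involve WT PR-A, PLK2 at 0.79 and -1.30, and CDKN1A above 0 in both comparisons with T47D-Y.

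Probe sets whose signals followed these members most closely over the 10 arrays were sought among those with a range of at least 1 between group means. PLK2 was followed by BACH1 (Pearson r = 0.990), PROM2 (0.985) and TCL1B (0.982). GADD45A was followed by a pair of SRGN probe sets (0.988 and 0.981) and DNAJB9 (0.979), and CCND3 by ARHGEF28 (0.940), PNMT (0.940) and ND6 (0.936). The 10 arrays share 5 groups, so each r mainly describes an order of group means.

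The relatives and partners of these genes were read from lists with 1 probe set per gene, in which a gene counts as measured if it has a probe set used here, and their counts stand beside those over all 8904 genes. With R5020 the PR-A K388R cells had 1.25% of all genes called higher and 0.416% lower, and the WT PR-A cells 4.4% higher and 3.47% lower. Among CDK inhibitors 2 of 8 had a probe set, CDKN1A and CDKN3, and limma called 0 in either line. In each line 1 of 2 had an unadjusted p under 0.05, and unmoderated contrasts called 0. The counts do not cover CDKN1C, a CDK inhibitor without a probe set used here. The study reports CDKN1C as strongly raised by progestin through WT PR-A, and this regulation as suppressed when the receptor is not SUMOylated. The G1 cyclins, CDKs and their activators had 8 of 13 measured, with CCND3 alone called in PR-A K388R cells (median change 0.18) and 0 called or at an unadjusted p under 0.05 in WT PR-A cells (median -0.09, and 0.02 without WT PR-A vehicle replicate 1).

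The GADD45 family, with 2 of 4 measured, moved as a pair in WT PR-A cells. GADD45G, a relative of GADD45A with a similar growth-arrest role, had signals of 6.12 and 5.89 in PR-A K388R cells with R5020 and 5.65 and 5.66 with vehicle, and 6.84 and 7.11 in WT PR-A cells with R5020 and 5.83 and 5.72 with vehicle. It rose by 1.20 in WT PR-A cells (limma, adjusted p = 0.000395) and changed by 0.35 in PR-A K388R cells (adjusted p = 0.335). The difference of the GADD45G responses was -0.85 (limma, adjusted p = 0.0614). With vehicle, GADD45G was called neither in PR-A K388R against WT PR-A cells (log2 difference -0.12, limma, adjusted p = 0.630) nor in WT PR-A against T47D-Y cells. The latter log2 difference was -0.14 (limma, adjusted p = 0.672), unlike the rise of GADD45A there.

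All 4 polo-like kinases were measured. PLK1, which drives mitosis, had signals of 9.10 and 9.28 in PR-A K388R cells with R5020 and 8.43 and 8.54 with vehicle. It rose by 0.71 there (limma, adjusted p = 0.0253), opposite in sign to PLK2, and the call of PLK1 was lost without PR-A K388R R5020 replicate 2 or PR-A K388R vehicle replicate 1, each of which left 0 polo-like kinases called higher. The log2 change of PLK1 in WT PR-A cells was -0.08, and the responses differed by 0.79 (adjusted p = 0.0643).

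Of p53 and its targets 12 of 30 had a probe set. In PR-A K388R cells PLK2 was the only one called, and it was lower (median change of the list 0.22). With WT PR-A 3 were called higher, GADD45A, FAS and MDM2, and 1 lower, PLK2 (median 0.11). The count called lower was 2 without WT PR-A R5020 replicate 2 (median 0.04) or WT PR-A vehicle replicate 2 (median 0.11), and the median was 0.07 without WT PR-A vehicle replicate 1. FAS, a death receptor, rose by 1.29 in WT PR-A cells (limma, adjusted p = 0.00679), and its log2 change in PR-A K388R cells was 0.93 (adjusted p = 0.113). MDM2, the ligase that degrades p53, rose by 0.74 by the probe set in the list (adjusted p = 0.00594) at signals of 4.55 and 4.84 with R5020 and 4.03 and 3.87 with vehicle, near the array medians, and its other probe set changed by -0.02. The targets of p53 thus had calls in both directions.

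BTG2 has no probe set used here, but 4 of the 6 genes of its BTG and TOB family do. BTG1, an antiproliferative relative of BTG2, had signals of 10.71 and 10.79 in WT PR-A cells with R5020 and 9.93 and 9.88 with vehicle, a rise of 0.84 (limma, adjusted p = 0.00214). In PR-A K388R cells it had 10.79 and 10.56 with R5020 and 10.17 and 10.35 with vehicle, a log2 change of 0.42 (adjusted p = 0.191). Other BTG1 probe sets changed by 1.09 and 0.30 in WT PR-A cells (limma, adjusted p = 0.000328 and 0.338). BTG1 was the only gene of the family called in either line. BTG3 and BTG4 had low signals, 2.92 to 3.75 and 2.38 to 2.75, where lower quartiles of the arrays were 3.28 to 3.39. Changes of BTG3 and BTG4 may therefore have been missed.

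Downstream of RB1, the S phase genes that E2F factors control differed in sign between the PR-A lines for most of them. Of 28 such genes 22 were measured, and 22 of 22 had a change above 0 in PR-A K388R cells (median 0.33), where 51.7% of all genes did (median 0.01). Of the same genes 3 of 22 had a change above 0 in WT PR-A cells (median -0.13), where 46% of all genes did (median -0.02). The values in WT PR-A cells depend on single arrays: it was 8 of 22 (median -0.05) without WT PR-A R5020 replicate 1 and 6 of 22 (median -0.09) without WT PR-A vehicle replicate 1, and the median was -0.23 without WT PR-A R5020 replicate 2 and -0.20 without WT PR-A vehicle replicate 2. The list was described because earlier results of these data were known, its genes are not independent of each other, and it was not tested as a set.

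Of these E2F targets 4 were called higher with R5020 in PR-A K388R cells. RRM2, a subunit of ribonucleotide reductase, had signals of 11.03 and 11.16 with R5020 and 10.23 and 10.17 with vehicle, a rise of 0.90 (limma, adjusted p = 0.0131). MYBL2, a transcription factor of proliferating cells, rose by 0.78 (adjusted p = 0.0331), CDC45, part of the replicative helicase, by 0.67 (adjusted p = 0.0393), and E2F1 itself by 0.64 (adjusted p = 0.0462). Another E2F1 probe set changed by 0.63 and was not called (limma, adjusted p = 0.0670). In WT PR-A cells RRM2 had signals of 10.59 and 10.83 with R5020 and 10.81 and 10.77 with vehicle. With vehicle, RRM2 was thus already lower in PR-A K388R than in WT PR-A cells (log2 difference -0.59, limma, adjusted p = 0.0218).

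RRM2 was also the one gene of the list with a called difference of responses (log2 difference 0.98, limma, adjusted p = 0.0431), where 0.719% of all genes were called higher and 1.16% lower. That call was lost without PR-A K388R R5020 replicate 2, PR-A K388R vehicle replicate 2, WT PR-A R5020 replicate 1 or either WT PR-A vehicle array, with RRM2 at an adjusted p of 0.0522 to 0.0643, and the count was 3 without WT PR-A R5020 replicate 2. The count of 4 E2F targets fell to 2 without either R5020-treated PR-A K388R array and to 1 without PR-A K388R vehicle replicate 1, and to 0 with unmoderated contrasts. In WT PR-A cells limma called 0 of the 22, with 4 at an unadjusted p under 0.05 and 0 called by unmoderated contrasts. Of the pocket proteins and E2F factors 9 of 18 were measured, and E2F1 was the only one called, a call lost without any single PR-A K388R array.

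Of FOXO factors and genes of quiescence 9 of 12 were measured. FOXO1, a transcription factor that raises several cell cycle brakes, had signals of 7.84 and 7.88 in WT PR-A cells with R5020 and 5.96 and 5.80 with vehicle, a rise of 1.98 (limma, adjusted p = 2.56e-05). Its change in PR-A K388R cells was 0.27, and the difference of -1.71 passed the test (adjusted p = 0.00463), although its other probe set changed by 0.69 in WT PR-A cells (adjusted p = 0.156). KLF9, an antiproliferative zinc finger factor, rose by 1.83 in PR-A K388R cells (adjusted p = 0.0116) and by 2.21 in WT PR-A cells (adjusted p = 0.000728). By this probe set the call in PR-A K388R cells was lost without PR-A K388R R5020 replicate 1. Another KLF9 probe set rose by 2.78 in PR-A K388R and 3.10 in WT PR-A cells (limma, adjusted p = 0.000415 and 3.26e-05). A further KLF9 probe set changed by 0.20 and 0.08 (adjusted p = 0.732 and 0.877). CCNG2, an unconventional cyclin linked to arrest, and TXNIP, an inhibitor of thioredoxin, fell by 0.85 and 1.45 in WT PR-A cells (adjusted p = 0.00723 and 0.00341). In PR-A K388R cells the same TXNIP probe set changed by -0.92 (adjusted p = 0.114) and another fell by 0.96 (adjusted p = 0.0217).

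In the list of cyclin E and p27 turnover, with 5 of 9 measured, USP28, a deubiquitinase, was the only gene called. It rose by 0.66 in WT PR-A cells (limma, adjusted p = 0.0186), and its call was lost without WT PR-A R5020 replicate 1 or WT PR-A vehicle replicate 1. SKP2, the F-box protein that targets p27, and its cofactor CKS1B were measured and not called.

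**Figure D4:**
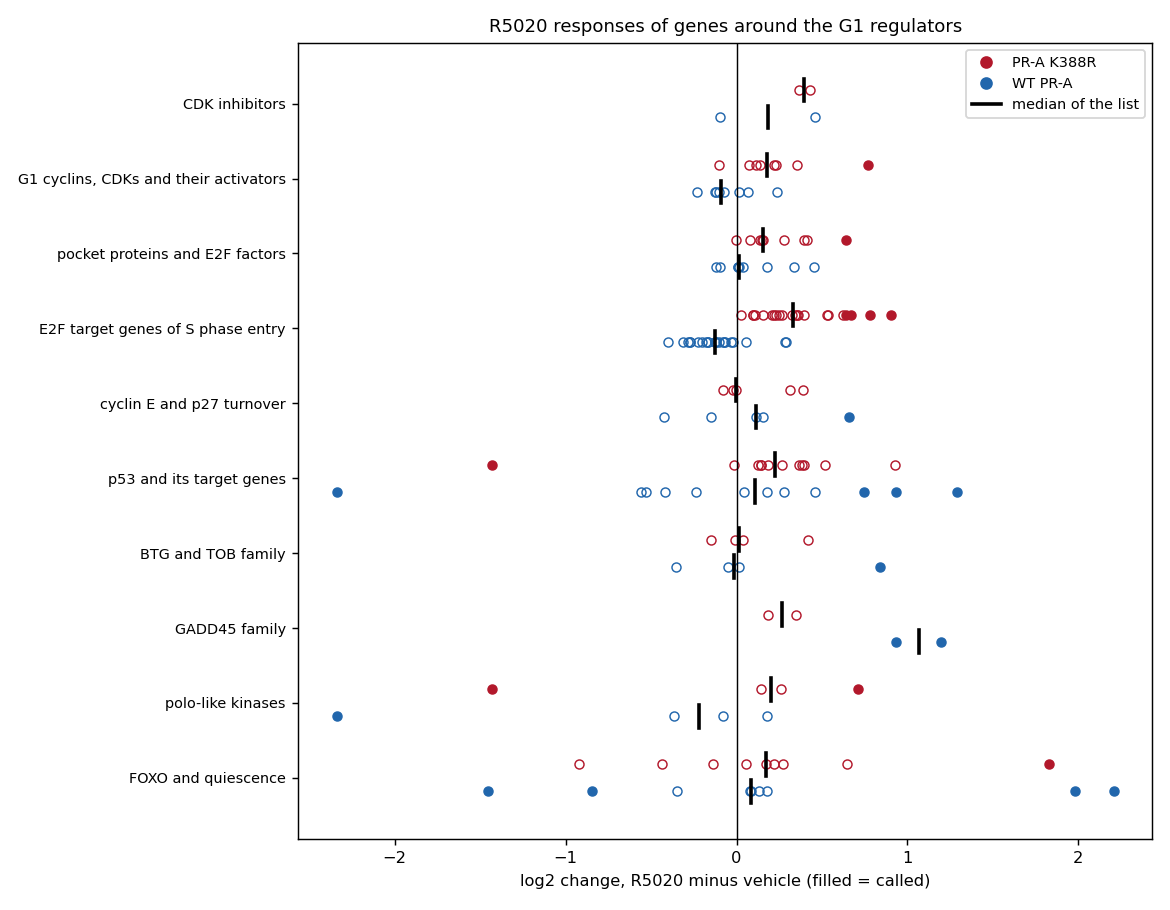
Log2 change with R5020 (horizontal axis) of each measured gene in the 10 lists (vertical axis), for PR-A K388R and WT PR-A cells, with 1 point per gene, filled where called, and a bar at the median of each list. The E2F targets lie above 0 in PR-A K388R cells (median 0.33) and mostly below 0 in WT PR-A cells (median -0.13), and the GADD45 family has a median of 1.06 in WT PR-A cells.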

How the data were processed

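RNA of 10 samples was hybridised to U133 Plus 2 arrays, and the deposited values are log2 signals per probe set that the authors normalised in Partek. The method of normalisation and background correction is not given in the sources used here, and the table used here holds 16376 probe sets, of which 12547 have 1 gene symbol, 457 several and 3372 none in the probe annotation. The study reports CDKN1C from its array profiling, but CDKN1C has no probe set used here. A gene without a value here may thus still be on the array, and shares over all probe sets refer to this table. The labels and the methods name different media and RNA kits. The number of arrays, 2 a group, limits the precision.

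The linear model, in limma 3.58.1 under R 4.3.3, held a mean for each group and the replicate number as a block, since replicate 2 minus replicate 1, summed over groups, is 0 for each probe set (at most 0.0003 in size). This leaves 4 residual and 5.62 prior degrees of freedom. The labels number the replicates in each group, and whether same-numbered arrays deviate together cannot be read from values so treated. The 6 comparisons were both R5020 responses, their difference and 3 comparisons of vehicle-treated lines. Benjamini-Hochberg adjustment ran over the whole table. Calls used the thresholds in the study's methods, an adjusted p under 0.05 together with a change of 1.5-fold or more.

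Every member with a probe set is named. Other genes named are up to 4 called genes with the smallest adjusted p in each of 10 lists, the 3 probe sets most correlated with each member called in an R5020 response, and FKBP5, SGK1 and PDK4. Where a gene has several probe sets, lists use that with the highest mean. The members and lists were chosen with earlier results of these data known. Promoter sequences and gene coordinates are from RefSeq (GRCh38.p14). The fit was tested on simulated data. Alternatives were a fit without the replicate block, unmoderated contrasts, a variance prior with an intensity trend, quantile normalization, subtracting each array's median, dropping the dimmest 40% of probe sets, a threshold of 2-fold or no fold threshold, fits on the compared groups alone, the most variable probe set per gene, and leaving out each array in turn. That last fit had no block, and the lone array of a group was taken to vary as the other groups do. Figures were drawn with matplotlib 3.10.9 in Python 3.11.15.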

Additional observations from a re-analysis of the deposited data

Results flagged for a closer look

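Among the members and the genes of the lists, 2 had R5020 responses that differed between PR-A K388R and WT PR-A cells in the test of the difference itself. PDK4, which is in none of the lists, passed that test too (log2 difference -1.84, limma, adjusted p = 0.0492). The FOXO1 response was lower in PR-A K388R cells by -1.71 on the log2 scale (limma, adjusted p = 0.00463), and it stayed between -1.58 and -1.83 as single arrays were left out, with a highest adjusted p of 0.00780. The RRM2 response was higher in PR-A K388R cells by 0.98 (adjusted p = 0.0431), and it stayed between 0.86 and 1.10 as single arrays were left out, with a highest adjusted p of 0.0643. The vehicle arrays enter this difference, and with vehicle RRM2 was lower in PR-A K388R than in WT PR-A cells (log2 difference -0.59, limma, adjusted p = 0.0218). For the difference of the responses, unmoderated contrasts gave an adjusted p of 0.153 for FOXO1 and 0.251 for RRM2. By the other FOXO1 probe set the difference was -0.54 and did not pass (limma, adjusted p = 0.645). The cause of these differences was not tested.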

How the results depend on the processing

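No member changed direction against a call under any alternative, and 998 of 1026 single values of members kept their side of the threshold. The fall of PLK2 with R5020 in WT PR-A cells, GADD45A in the comparisons of WT PR-A with the other lines under vehicle, and PLK2 in WT PR-A against T47D-Y were called in all 19 alternatives. Without the replicate block 1 member was called higher in the difference of the R5020 responses, PLK2, and 1 in PR-A K388R against T47D-Y, CDKN1A, where 0 were with it. The same 1 and 1 were called with an intensity trend and with quantile normalization, and PLK2 also with the 40% dimmest probe sets left out (adjusted p = 0.0495 in limma). The block changed no other call of a member; among the lists, the difference without it had 2 polo-like kinases and 4 E2F targets called higher and 1 GADD45 family gene lower, against 0, 1 and 0 with it. Unmoderated contrasts lost GADD45A (0 called higher in WT PR-A with R5020), CCND3 and PLK2 (0 higher and 0 lower in PR-A K388R with R5020), CDKN1A (1 higher in WT PR-A against T47D-Y) and PLK2 (0 higher in PR-A K388R against WT PR-A). A fold of at least 2 gave 0 higher in each R5020 response, 1 higher in WT PR-A against T47D-Y and 0 higher in PR-A K388R against WT PR-A, by its stricter construction. As single arrays were left out, members called higher ranged over 0 to 1 in the difference of the responses, 0 to 1 in PR-A K388R against T47D-Y and 1 to 2 in WT PR-A with R5020, and the other member counts did not move. PLK2 then passed in the difference without PR-A K388R R5020 replicate 1, WT PR-A R5020 replicate 2, WT PR-A vehicle replicate 2 or either T47D-Y array (highest adjusted p 0.0393), and CDKN1A in PR-A K388R against T47D-Y without any single array of PR-A K388R R5020, WT PR-A R5020 or WT PR-A vehicle (highest adjusted p 0.0388); these fits have no block, and their calls compare with the fit without it. Over all probe sets the difference of the responses had 85 calls higher and 156 lower, 237 and 289 without the block, 189 and 246 with an intensity trend and 0 in either direction with unmoderated contrasts, and R5020 in PR-A K388R cells had 166 and 64, against 2 and 0 with unmoderated contrasts. The cause of these shifts was not tested. With 2 arrays a group the intervals of CDKN1A, CCNE2 and CDK2 leave changes of moderate size undecided.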
